A study of Mus musculus with 105 samples.

Results

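The genes described here are 44 DNA repair genes, chosen by name as the RAD, FANC, XRCC and MSH genes with the MLH and BRCA genes, of 20756 genes in the expression tables. All 44 were listed in each table. The wider series followed ribosome footprints, mRNA and poly(A) tails from the mouse oocyte to the early embryo, and 53 of its 105 samples were used, all from oocytes. Single oocytes of wild-type C57BL/6 females aged 5 or 8 weeks, primed with gonadotropins, gave 18 footprint libraries at the full-grown stage (FGO, arrested in prophase of meiosis I) and 20 at metaphase II (MII, the mature egg). MII oocytes of Btg4 Het and Btg4 KO females gave 3 footprint libraries per genotype and 2 mRNA libraries per genotype. Btg4 links the CCR4-NOT deadenylase to maternal mRNAs, so that their poly(A) tails are shortened during maturation. Tail lengths were measured in 1 wild-type FGO library of the surrounded-nucleolus type, 1 wild-type MII library, 1 Btg4 Het MII library and 2 Btg4 KO MII libraries. The labels give neither the Btg4 allele, the number of oocytes in a Btg4 library, nor which animals the libraries came from. P-values therefore measure the spread between libraries, and each stage of single oocytes was treated as 1 sample with no test.

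DNA damage is mended by several routes, and these genes are divided among them. In homologous recombination a broken end is paired with an intact copy, with the help of BRCA1, BRCA2, the RAD54 motors and the BCDX2 and CX3 complexes; the Fanconi genes unhook crosslinks between the strands; Ku (Xrcc5 and Xrcc6) and XRCC4 join ends directly; and the MSH and MLH proteins correct mismatches, with MSH4, MSH5 and MLH3 serving meiotic crossovers. A mature oocyte does not transcribe, so the repair proteins of the egg and the early zygote come from mRNAs stored during growth.

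Values are FPKM, reads scaled to gene length and library size, so levels may be compared between genes but show shares of a library, not absolute amounts. Fewer oocytes and less RNA per oocyte cannot be told apart in the Btg4 libraries. From the whole-number steps of low values, recovered reads ranged from 15535 to 142217 in FGO, from 7911 to 65086 in MII, and from 56350 to 174792 in the Btg4 footprint libraries. The depth of the mRNA libraries is unknown. The libraries labelled MII oocytes 2 and 4 stood apart: oocyte 4 correlated at 0.76 with the mean FGO and 0.68 with the mean of the other MII oocytes, and oocyte 2 at 0.72 and 0.74. In the other 18 MII oocytes the correlation with their own stage was higher by 0.29 or more. All 10 oocyte markers were listed in at least 1 oocyte of each stage. Granulosa and cumulus markers (15 genes) summed to between 1.59 and 122 FPKM in FGO and between 0 and 55.2 in MII, and blood and immune markers (9 genes) to between 0 and 523 in FGO and between 0 and 90.2 in MII. Of the granulosa and cumulus markers 14 were listed in at least 1 FGO and 11 in at least 1 MII oocyte. Their sum over footprints of the Btg4 experiment lay between 22.4 and 73.2 in Het and between 33.8 and 84.3 in KO. The part of these cells in the results was not tested. Btg4 itself had 7009, 6346 and 6134 FPKM of footprints in Het and 1148, 971 and 907 in KO, which checks the labels, and mRNA of 3293 and 4774 in Het against 1754 and 2345 in KO.

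From FGO to MII the footprints of the mismatch repair genes Msh6 and Msh4, of Brca2 and of the cohesin subunit Rad21 were higher, while those of Rad23b, Rad54b, Fancl, Xrcc1 and both Ku genes were lower. Of the 44 members, 37 reached a mean of 1 FPKM at either stage. Among these, 9 were at least 2-fold higher in MII on the scale of log2(mean + 1), which is 24.3%, beside 25.8% of the 10068 genes that passed the same filter. A further 12 were at least 2-fold lower, which is 32.4%, beside 31.8% of all genes. Both shares are near the background, so the repair genes as a set were not set apart by how many of them differed. The median log2 ratio was 0.02 over the members and -0.26 over all genes. A member far below the filter at 1 stage could pass only through the stage where it was high.

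Mismatch repair genes held the largest ratios upward. MSH6 is a subunit of the MutS alpha complex, which reads base mismatches. Msh6 footprints had their lowest, median and highest values at 0, 3.52 and 14.5 FPKM in FGO and at 12.5, 37.4 and 77.0 in MII, so the stages met only at the edge. The mean went from 4.74 ± 4.63 (SD, n = 18 oocytes) to 39.1 ± 19.2 (n = 20), a log2 ratio of 2.80. Msh4, which acts with MSH5 in meiotic recombination, was above 0 in 8 of 18 FGO, reaching 5.24 FPKM, and in 19 of 20 MII oocytes, with a median of 8.18 and a maximum of 19.2, a log2 ratio of 2.30. Its partner Msh5 did not pass the filter and was above 0 in 11 FGO and 1 MII oocyte. Msh3, a subunit of MutS beta, had similar means of 3.84 ± 4.31 (SD, n = 18) and 3.71 ± 3.14 (SD, n = 20). Mlh3 did not pass, with no value above 1.80 FPKM.

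**Figure D1:**
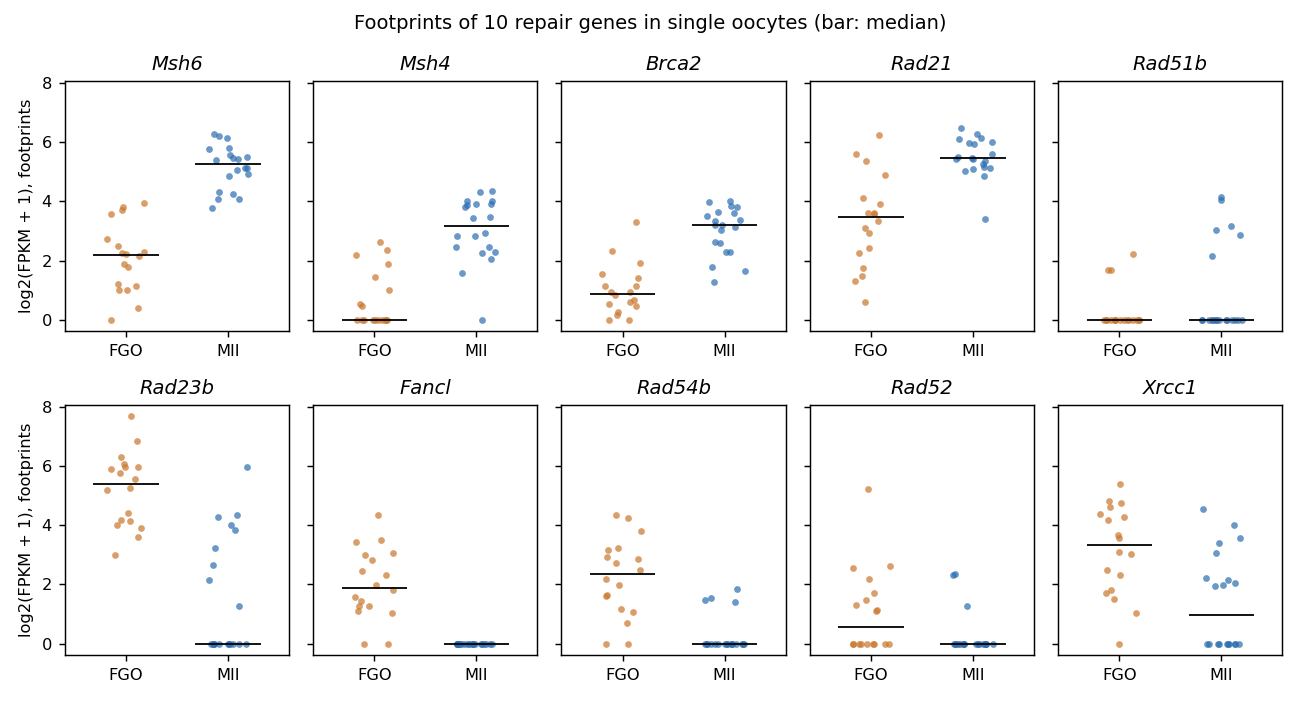
Footprints of 5 members of large ratio upward (top) and 5 of large ratio downward (bottom) from FGO to MII; each point is 1 oocyte (18 FGO, 20 MII), the vertical axis is log2(FPKM + 1) and the bar is the median. Msh6 is the most clearly separated of the top row; Fancl lies at 0 in all 20 MII oocytes.

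All 8 strand exchange and mediator genes passed the filter, with 1 higher and 2 lower. BRCA2 is the main mediator of strand exchange. Brca2 footprints ran from 0 through a median of 0.85 to 8.96 FPKM in FGO and from 1.45 through 8.15 to 15.1 in MII, a log2 ratio of 1.88, and all 20 MII oocytes had a value above 0. Brca1 moved from 10.3 ± 10.4 to 15.0 ± 7.75 and was above 0 in all 38 oocytes. Rad54b, a motor related to RAD54L, ran from 0 through 4.06 to 19.4 in FGO, whereas 4 of 20 MII oocytes had any footprint and the highest was 2.57. Its log2 ratio was -2.27. Rad52, the annealing protein, had a log2 ratio of -1.51 that rested on FGO oocyte 1: without it the ratio was -0.62.

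Of the genes of the BCDX2 and CX3 complexes, which assist strand exchange, Rad51b was higher in MII (log2 ratio 1.40) but was above 0 in only 3 FGO and 6 MII oocytes. Rad51d was at least 2-fold lower, with 12 of 18 FGO and 3 of 20 MII oocytes above 0. Rad51c, above 0 in 8 FGO and 3 MII oocytes, had means of 2.03 and 2.18 that differed by less than the spread. Xrcc3 was below the filter and listed at 0 in all 20 MII oocytes.

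Of the 9 Fanconi genes, 6 passed the filter, with 2 higher and 2 lower. Fancl, the ubiquitin ligase of the core complex, ran from 0 through 2.72 to 19.1 FPKM in FGO, where 16 of 18 oocytes were above 0, and was listed at 0 in all 20 MII oocytes, so no fold is given. Fanca, a core subunit, was above 0 in 17 FGO and 3 MII oocytes. Fancm, the translocase that anchors the complex, went from a median of 0.33 to 2.17 and from 13 of 18 to 19 of 20 oocytes above 0. Fanci and Fancc had log2 ratios of 0.02 and -0.07.

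All 4 genes of end joining and single-strand break repair passed, and all 4 ratios were negative, from -1.42 to -0.22; 3 of them were past 2-fold. Xrcc1, the scaffold of single-strand break repair, ran from 0 through a median of 9.15 to 40.8 FPKM in FGO and from 0 through 1.44 to 22.5 in MII, a log2 ratio of -1.42. The highest MII value of Xrcc1 was in MII oocyte 2, and without oocytes 2 and 4 the ratio was -1.98. The Ku genes, named as a pair after their values were seen, were above 0 in all 18 FGO. Xrcc5 (Ku80) had medians of 15.5 and 4.50 and Xrcc6 (Ku70) of 6.27 and 0. Per length, Xrcc5 exceeded Xrcc6 in all 18 FGO and in 13 of 20 MII oocytes, with 1 MII oocyte the other way. The ratio of means was 3.12 in FGO and 3.45 in MII. In the Btg4 experiment it was 3.33 in Het and 1.59 in KO footprints, but 0.85 in Het and 0.67 in KO mRNA.

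Among the break-sensing and remaining RAD genes, Rad23b had the most footprints of any member in FGO. It is a ubiquitin receptor and partner of XPC in nucleotide excision repair. Rad23b ran from 6.90 through 41.6 to 204 FPKM in FGO and from 0 through 0 to 61.2 in MII, where 9 of 20 oocytes were above 0; its log2 ratio was -2.65. The highest MII value was in oocyte 4, and without oocytes 2 and 4 the ratio was -3.47. Rad21, the kleisin that closes the cohesin ring, ran from 0.52 through 10.1 to 74.2 in FGO and from 9.51 through 42.7 to 88.1 in MII, a log2 ratio of 1.50, and was the member with the highest mean in MII. Rad50 of the MRN complex, at 8.69 ± 7.98 (SD, n = 18) and 9.83 ± 6.77 (SD, n = 20), differed by less than the spread. Rad1, a subunit of the 9-1-1 checkpoint clamp, had medians of 1.52 and 7.17, while Rad9b, a paralog of its clamp partner RAD9A, was listed at 0 in all MII oocytes. Being listed at 0 in every MII oocyte held for 5.87% of all genes that passed.

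These ratios have no test, and depth differed between the stages. Within the range of depth that both stages share (15 FGO and 14 MII oocytes, chosen after seeing the data), 13 of 36 members were at least 2-fold higher and 5 lower, beside 33.0% and 23.4% of all genes. The 9 higher and 5 of the 12 lower members were among these. The balance of higher and lower thus turned there for members and for all genes, with medians of 0.59 and 0.23. With each oocyte scaled to the genes listed in nearly all oocytes, 5 of 39 were higher and 14 lower, beside 17.7% and 44.1% of all genes, with medians of -0.49 and -0.81. Msh6, Msh4, Brca2 and Rad21 were at least 2-fold higher, and Rad23b and Rad54b at least 2-fold lower, under all 8 other settings. Hemoglobin RNA was listed in 9 of 18 FGO and 1 of 20 MII oocytes; in the oocytes without it the 9 higher members remained and 9 of the 12 lower ones did.

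In Btg4 KO MII oocytes the mRNA of 5 repair genes rose, among them Fancl, Rad51c and Rad54b. Of 36 members tested with limma, 5 rose (13.9%, beside 18.9% of all 8865 genes) and 0 fell (beside 0.62% of all genes). With 10 members at an unadjusted p below 0.05, the count of members called was not above the background in this unpaired fit. With the replicate number as a block, 15 of the 36 were called higher (beside 34.2% of all genes) and 7 lower (beside 17.5%). The median log2 difference was 0.42 over the members and 0.14 over all genes; with median scaling it was 0.02 over the members and -0.26 over all genes. Values of the 2 genotypes did not overlap for 15 members that were higher in KO (41.7%, beside 38.9% of all genes) and for 9 that were lower (25.0%, beside 22.0%).

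Fancl mRNA was 2.13 and 1.52 FPKM in Het and 22.7 and 21.9 in KO. The difference was 3.05 on the log2(FPKM + 1) scale (SE 0.35; limma, adjusted p = 0.0011). Fancl footprints were listed at 0 in all 20 single wild-type MII oocytes. Rad51c mRNA was 3.05 and 3.31 in Het and 18.4 and 18.2 in KO, a log2 difference of 2.21 (SE 0.34; limma, adjusted p = 0.0036). The replicates of Rad51c lay close together and far from the other genotype. Rad54b mRNA was 3.41 and 3.85 in Het and 13.3 and 18.1 in KO, a log2 difference of 1.84 (SE 0.36; limma, adjusted p = 0.0095). All 3 genes thus had both KO values above both Het values.

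**Figure D2:**
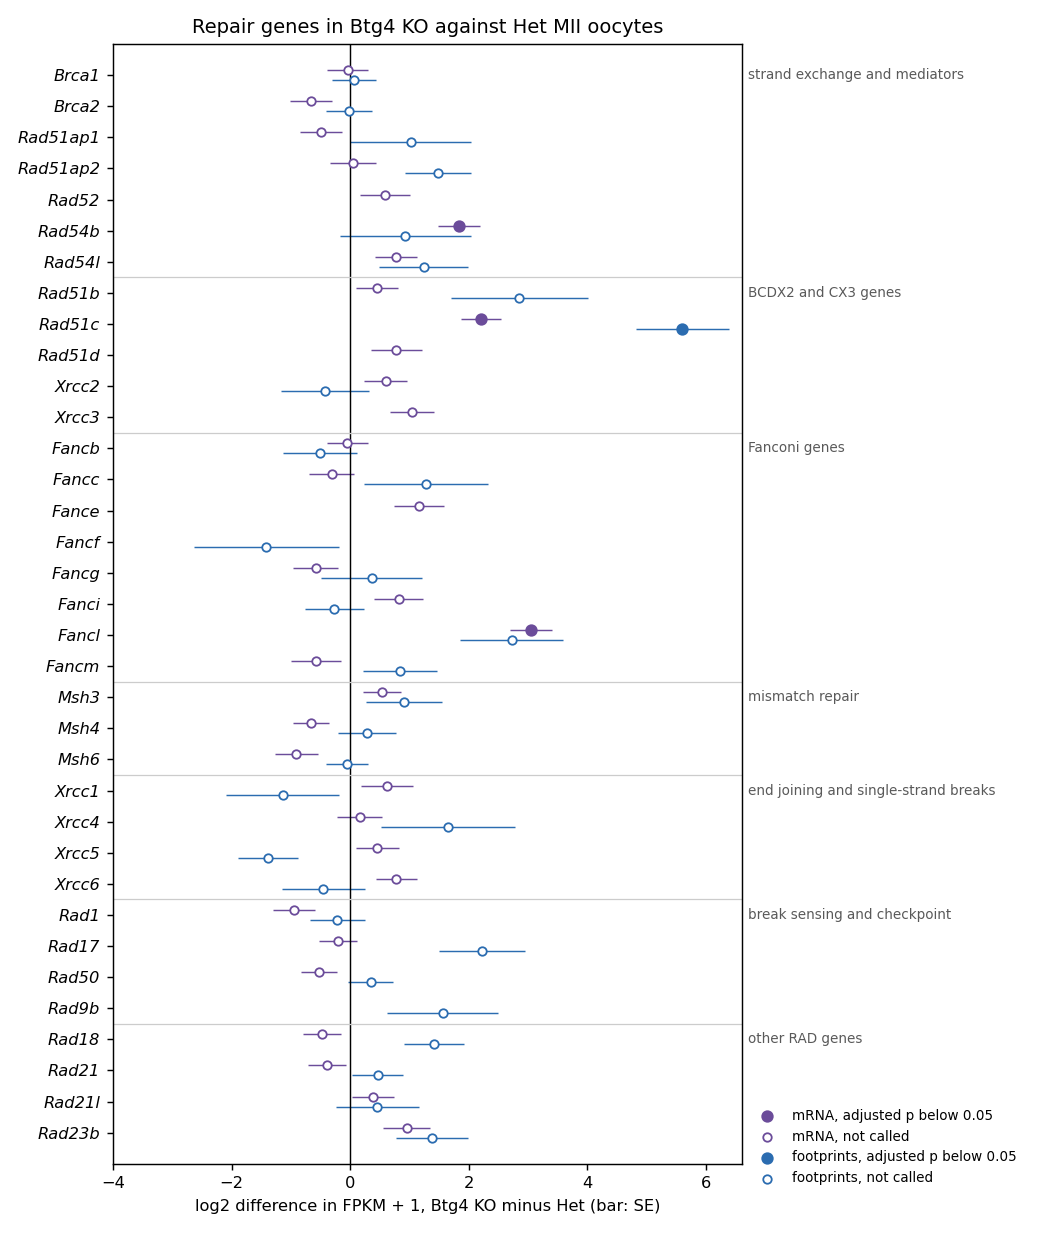
Log2 differences between Btg4 KO and Het MII oocytes in mRNA (purple, 2 libraries per genotype) and footprints (blue, 3 per genotype) for members tested in either, grouped by role; bars are SE and filled points passed limma at an adjusted p below 0.05. The filled points are Rad54b, Rad51c and Fancl in mRNA and Rad51c in footprints.

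The split between higher and lower calls depended on the scaling. As deposited, 1677 genes were called higher and 55 lower; with each library scaled to the same median, which shifted the median of all genes from 0.14 to -0.26, 999 were higher and 929 lower. Fancl, Rad51c and Rad54b were called higher on both scales. Msh6, Msh4 and Brca2 were called lower with median scaling, with log2 differences of -1.41, -1.15 and -1.15 (limma, adjusted p = 0.034, 0.043 and 0.045). Msh6 mRNA was 59.4 and 40.7 in Het and 32.3 and 20.4 in KO as deposited. Rad1 had the lowest p of the downward members as deposited, with 27.3 and 43.3 in Het and 15.9 and 18.9 in KO (log2 difference -0.95; limma, adjusted p = 0.097), followed by Msh6 (log2 difference -0.91; limma, adjusted p = 0.12). Leaving out single libraries left 3 to 5 calls, and Rad54b lost its call without KO replicate 2 (limma, adjusted p = 0.069).

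By role, the 5 genes of the BCDX2 and CX3 complexes all had positive mRNA differences, from 0.45 to 2.21, with 1 called. Of the 8 strand exchange and mediator genes 2 were called, with differences from -0.66 to 1.84. Of 7 Fanconi genes tested 1 was called, with a range from -0.58 to 3.05. The 4 end-joining and single-strand break genes lay between 0.16 and 0.77, with none called, the 3 break-sensing genes between -0.95 and -0.21, and the 4 remaining RAD genes between -0.48 and 0.95. These signs and ranges are as deposited. With median scaling the members' median went from 0.42 to 0.02, so small positive differences may not keep their sign. As deposited 21 of the 36 members tested had a positive difference, and the share over all genes is not given here. The 8 members not tested for low mRNA included Fanca, Fancf, Mlh3, Msh5, Rad54l2, Rad9a and Rad9b.

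In footprints, Rad51c was the only member called. Of 34 members tested with limma 1 rose (2.94%, beside 3.21% of all 8526 genes) and 0 fell (beside 0.328%), with 7 members at an unadjusted p below 0.05. Rad51c footprints were 2.81, 0 and 0 FPKM in Het and 71.3, 143 and 40.6 in KO. These correspond to 2, 0 and 0 recovered reads in Het and 28, 80 and 24 in KO, taking the smallest step as 1 read. The log2 difference was 5.60 (SE 0.78; limma, adjusted p = 0.020). Because the Het count was so low, the depth-corrected ratio of reads was 58.4 with an exact 95% interval from 15.9 to 487, which covers counting error only. The call was lost without Het replicate 3 and without each of the KO libraries in turn (limma, adjusted p between 0.062 and 0.12). The log2 difference stayed between 5.13 and 6.24 in all 6 fits that left out 1 library. Without any 1 of the KO libraries, 0 of all genes were called, so that loss was not particular to Rad51c. The call was also lost with a pseudocount of 0.1 and with no filter on low values. In the mRNA libraries Rad51c rose by 2.21 on the log2 scale.

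Other footprint differences missed the threshold. Fancl footprints were 2.73, 0 and 0 in Het and 15.1, 3.55 and 13.6 in KO (log2 difference 2.72; limma, adjusted p = 0.16). Xrcc5 (Ku80) had the lowest p downward, with 29.9, 24.8 and 15.1 in Het and 9.43, 8.33 and 6.40 in KO (log2 difference -1.38; limma, adjusted p = 0.21). Every KO library of Xrcc5 lay below every Het library. The genotypes did not overlap for 8 members higher in KO (23.5%, beside 16.8% of all genes) and for 2 lower (5.88%, beside 7.69%). Rad21 and Msh6 had the most footprints of any member in both genotypes: Rad21 at 117, 193 and 110 in Het and 154, 305 and 140 in KO, and Msh6 at 128, 167 and 123 in Het and 97.3, 180 and 134 in KO. For both, the genotypes overlapped. The 10 members not tested for low footprints included Fanca, Fance, Mlh3, Msh5, Rad51d, Rad52, Rad54l2, Rad9a and Xrcc3.

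**Figure D3:**
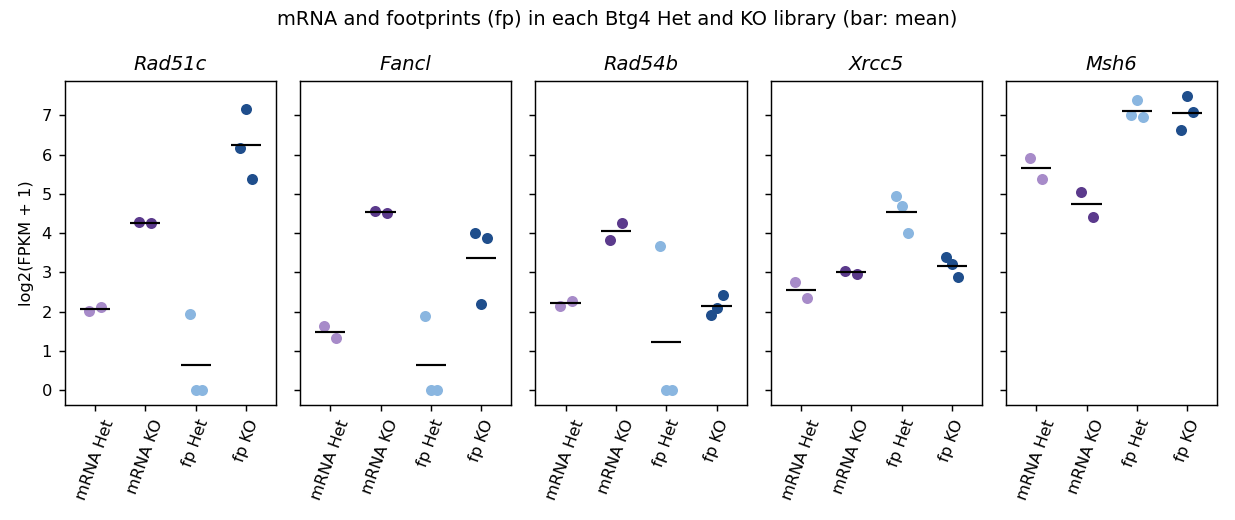
Every mRNA and footprint (fp) library for 5 members, as log2(FPKM + 1); points are libraries and bars are means. Rad51c was higher in KO in both assays; for Xrcc5 the KO libraries were higher in mRNA and lower in footprints.

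Footprints relative to mRNA were then compared between genotypes in 1 model over all 10 libraries. Of 32 members tested, 0 rose (beside 0.853% of all 7382 genes) and 0 fell (beside 0.447%) by limma, with 5 at an unadjusted p below 0.05. Adding the replicate number as a block gave 27 genes higher and 22 lower in place of 63 and 33, and again 0 members. Rad51c had a log2 difference in footprint efficiency of 3.39 (SE 1.04; limma, adjusted p = 0.18). Rad17, the loader of the 9-1-1 clamp, followed at 2.43 (SE 0.87; limma, adjusted p = 0.24) and Xrcc5 at -1.84 (SE 0.67; limma, adjusted p = 0.24). Under median scaling 0 members passed as well.

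In Het oocytes alone, mean footprints were set over mean mRNA as a log2 ratio, with 1 FPKM added to each mean. The median ratio was 0.23 over the 32 members and 0.23 over all genes tested. The extremes, chosen after their values were seen, were Fanci at 2.73, Rad21 at 2.72, Xrcc5 at 2.04 and Brca1 at 2.01 on the high side, and Rad17 at -3.55 and Rad51ap1 at -2.08 on the low side. Rad17 mRNA was 29.3 and 23.5 FPKM in Het, yet its footprints were 2.04, 2.00 and 0; in KO its mRNA was 23.9 and 21.3 and its footprints 6.13, 13.0 and 8.32. Brca1 had 12.9 and 11.3 in mRNA and 56.3, 54.9 and 44.0 in footprints, and neither differed between genotypes beyond the spread. The 5 repair mRNAs of highest mean in Het were Msh6, Rad18, Brca2, Rad1 and Msh4, of which Msh6 and Rad1 were also among the 5 highest in footprints. Rad18, a ubiquitin ligase for the replication clamp, had mRNA of 35.0 and 48.1 in Het and 26.0 and 32.8 in KO, and footprints of 42.8, 22.4 and 14.7 in Het and 52.8, 86.9 and 63.5 in KO.

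Maturation in wild-type oocytes and loss of Btg4 share no libraries, and their values were set side by side for members measured in both. Across 30 of them the footprint ratio of MII to FGO and the mRNA difference of KO to Het had a Spearman rho of -0.74, given as a description over genes that share libraries. Over 7739 genes of the tables rho was -0.56. Of the 5 members whose mRNA rose in KO, 4 had a lower mean of footprints in MII than in FGO and 3, Fancl and Rad54b among them, were at least 2-fold lower; over all genes called higher in KO, 877 of 1677 were at least 2-fold lower. Msh6, Msh4 and Brca2, which were higher at MII, all had negative mRNA differences in KO, between -0.91 and -0.66, none of which passed as deposited.

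**Figure D4:**
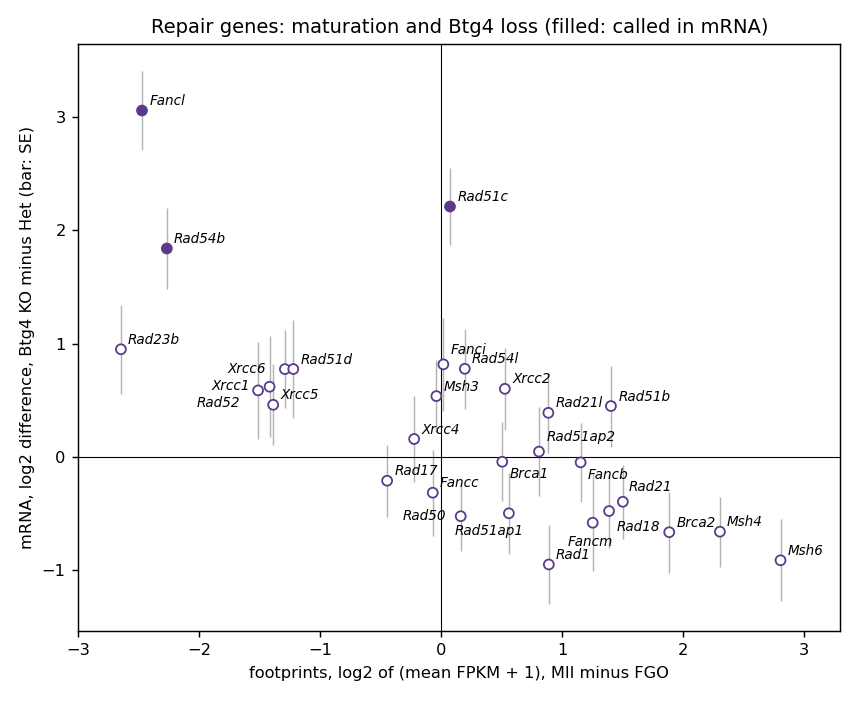
Each point is 1 of 30 repair genes: footprint change from FGO to MII (horizontal, log2 of mean FPKM + 1) and mRNA difference between Btg4 KO and Het (vertical, log2, bar SE). Filled points were called in mRNA; Fancl is plotted with its MII mean of 0.

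Poly(A) tail lengths, deposited without a unit and with 0 for no value, were given for 29 of the 44 members in the FGO library. Their median was 56.3 (quartiles 46.9 and 63.8), beside 54.1 (45.3 and 63.3) over 6353 genes. The shortest was Msh4 at 34.2, followed by Xrcc3 at 36.6, Rad18 at 39.0 and Brca2 at 42.5. The longest was Fanci at 84.6, followed by Rad17 at 80.6, Rad51d at 69.4 and Xrcc1 at 67.3. Rad51c stood at 46.3, Msh6 at 58.5 and Rad23b at 64.0. Over 24 members with an FGO tail and a footprint ratio, rho between them was -0.62, against -0.37 over 5730 genes, again as a description. Of the members of shortest tail, Msh4, Rad18 and Brca2 had higher footprints in MII, whereas Xrcc3 was listed at 0 in all MII oocytes. Of those of longest tail, Rad51d and Xrcc1 had lower footprints, while Fanci had a ratio of 0.02. Xrcc6, with a tail of 46.9, had a ratio of -1.29.

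**Figure D5:**
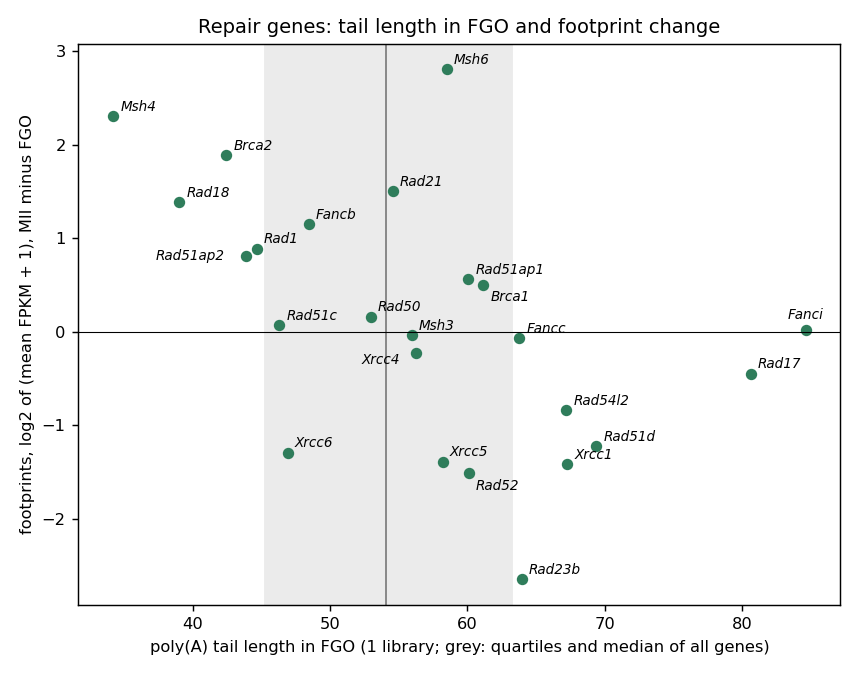
Tail length in the FGO library (horizontal, unit not given in the table) and footprint change from FGO to MII (vertical, log2 of mean FPKM + 1) for 24 repair genes; the line and grey band are the median and quartiles of all 6353 genes with a tail value. Msh4 is at the short end and Fanci at the long end.

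In MII oocytes tail values of members were few, and no member could be tested. The Het library gave 2 members, among them Msh6 at 75.0, above its FGO value of 58.5. The KO libraries gave Rad50 at 35.5 and 41.9, beside 53.0 in FGO, and Rad23b at 58.3 and 30.4, beside 64.0 in FGO. No member had a value in both Het and KO. With 1 library in each of these groups except KO, the differences have no replicate check.

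Promoter sequences of 33 of the 44 members were found by symbol among RefSeq entries (GRCm38.p6), from 250 bases before the start of the gene to 50 after it. They describe a feature that the choice by name did not use; footprints and mature mRNA do not measure promoter activity. An E2F motif, searched as TTTCCCGC or TTTGGCGC on both strands, was present in 6 of 33 members (18.2%), beside 1.63% of 27025 genes. The CCAAT box, searched as CCAAT on both strands, was present in 60.6% of members and 37.9% of all genes. The median GC content was 60.3% and 52.7%. Both E2F forms hold a CpG pair (C followed by G). The median ratio of observed to expected CpG pairs was 0.86 in members and 0.39 over all genes. The 27025 genes were not matched to the members for this, and its part in the E2F shares was not tested. The 6 matches follow, with 10 bases to each side, read 5′ to 3′ along the gene's strand, with the match in capitals (TTTCCCGC reads GCGGGAAA on the opposite strand):
Msh6 (chr17:87975055-87975082, + strand): tcctcccgacTTTCCCGCcagcggcggc
Msh5 (chr17:35046670-35046697, - strand): gacggaaaagGCGGGAAAgtgctgcgaa
Msh3 (chr13:92355188-92355215, - strand): tgccgtcaagTTTGGCGCgaaatcgcag
Brca2 (chr5:150522443-150522470, + strand): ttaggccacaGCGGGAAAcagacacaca
Xrcc6 (chr15:82016313-82016340, + strand): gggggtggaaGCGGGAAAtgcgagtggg
Fancg (chr4:43010336-43010363, - strand): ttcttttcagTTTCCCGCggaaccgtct
Genes with a match did not move in 1 direction at MII: Msh6 and Brca2 were past 2-fold higher and Xrcc6 past 2-fold lower, Msh3 had similar means, and Msh5 and Fancg were below the filter. Of the members called in KO mRNA, Rad51c and Fancl had a promoter entry and no match in this window.

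Partner genes of the same pathways were compared from lists chosen with earlier results known. Their counts stand beside the shares over all genes given above: 25.8% higher and 31.8% lower in MII single oocytes, and 18.9% and 3.21% higher in KO mRNA and footprints. Of the recombination partners, 7 of 22 that passed were at least 2-fold higher in MII single oocytes and 8 lower; Palb2, which joins BRCA1 to BRCA2, went from 0.95 ± 1.04 (SD, n = 18) to 14.7 ± 7.27 (SD, n = 20), and Psmc3ip, a meiotic cofactor of strand exchange, from 17.1 ± 13.4 to being listed at 0 in all MII oocytes. In KO, 3 of 20 recombination partners were called higher in mRNA and 0 lower. Psmc3ip was called higher, with 2.55 and 1.22 in Het and 42.9 and 60.3 in KO (log2 difference 4.21; limma, adjusted p = 0.00057). Psmc3ip footprints, unlike in single MII oocytes, were above 0 in every Btg4 library, and they did not differ as the mRNA did. They were 11.2, 5.50 and 43.2 in Het and 15.2, 35.9 and 6.89 in KO (log2 difference 0.14, limma, adjusted p = 0.96). In footprints 3 of 21 rose, led by Sfr1, a recombination cofactor, with 23.3, 3.28 and 4.29 in Het and 453, 451 and 430 in KO (log2 difference 5.76; limma, adjusted p = 0.014). Sfr1 was also the single partner called in footprint efficiency (log2 difference 5.19; limma, adjusted p = 0.042). None of the recombination partners was called lower in these fits, though some had negative differences that did not pass.

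Among Fanconi partners, 3 of 8 rose in KO mRNA and 1 of 9 in footprints. That 1 was Ube2t, the conjugating enzyme that works with FANCL, with footprints of 129, 66.3 and 39.4 in Het and 1350, 1320 and 1213 in KO (log2 difference 4.19; limma, adjusted p = 0.011) and an mRNA difference of 2.48 (limma, adjusted p = 0.0068). Unlike Fancl, Ube2t had higher footprints in MII than in FGO, at 49.3 ± 40.8 (SD, n = 20) and 7.57 ± 8.79 (SD, n = 18). Of the mismatch repair partners 2 of 9 rose in KO mRNA, the clamp-loader subunits Rfc2 and Rfc3 (log2 differences 2.16 and 1.47; limma, adjusted p = 0.0061 and 0.019), and both had lower footprints in MII, at log2 ratios of -2.17 and -2.44. Of the base excision partners 5 of 15 were called higher in mRNA and 0 of 18 in footprints. Fen1, the flap nuclease, had mRNA of 0.32 and 0.34 in Het and 19.5 and 14.5 in KO (log2 difference 3.74; limma, adjusted p = 0.00057). Fen1 footprints were also higher but missed the threshold, at 1.34, 21.1 and 13.8 in Het and 90.0, 156 and 122 in KO (log2 difference 3.72, limma, adjusted p = 0.070). Of the nucleotide excision partners 2 of 9 rose in mRNA and 2 of 9 in footprints, with Cetn2, the centrin bound to XPC, called in both (log2 differences 3.98 and 5.70; limma, adjusted p = 0.00057 and 0.049). Of the end joining partners 1 of 7 rose in mRNA, of the checkpoint partners 1 of 11 and of the cohesin partners 0 of 10, with 0 called in footprints in each. In single oocytes the largest partner ratio was that of Ddb2, the damage sensor of nucleotide excision repair, at 0.85 ± 1.80 (SD, n = 18) in FGO and 77.0 ± 44.3 (SD, n = 20) in MII. In the cohesin list, where 4 of 10 were at least 2-fold higher and 0 lower, Smc3 went from 4.12 ± 5.97 (SD, n = 18) to 26.8 ± 13.6 (SD, n = 20), in the same direction as Rad21.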

How the data were processed

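Ribosome footprints were measured in single oocytes and in Btg4 Het and KO MII oocytes, poly(A) RNA in the latter, and tail lengths in 5 libraries. The authors deposited FPKM values per gene; per the submitters' processing notes the tools included Trim Galore 0.4.2, cutadapt 1.14, Bowtie2 2.2.2, STAR 2.5.3a and Cufflinks 2.2.1 with the mouse build mm9, without saying which made which file. The tail length table the authors deposited gives 1 other value per gene and library, with 0 for no value. Exact repeats of rows (231 and 1) were dropped. In footprints 76.6% of low values were whole multiples of a smallest step within 0.03, which gave relative reads for 7350 genes; in mRNA 7.94% were, so no count test was run.

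Libraries were grouped by label. Tests used limma 3.58.1 (R 4.3.3, trend) on log2(FPKM + 1), over genes whose mean reached 1 FPKM, with Benjamini-Hochberg adjustment over all genes and a threshold of 0.05; efficiency was the assay by genotype term. The scripts were tested on simulated data. Het and KO footprint libraries of the same number deviated together (correlations 0.26, 0.42 and 0.16). The fits reported above nevertheless had no block and were unpaired. A fit with the numbers, taken from the labels, as a block was run as an alternative. In footprints it called 241 genes higher and 26 lower, in place of 274 and 28, and Rad51c kept its call. In mRNA it called 3033 genes higher and 1553 lower, in place of 1677 and 55. Alternatives were another pseudocount, quantile and median scaling, no filter, the replicate block and leaving out libraries or oocytes. Members and lists were chosen with earlier results of these data known. Full values were given for members called in a fit (at most 8 per direction), otherwise the 2 of lowest p, for at most 6 members per direction past 2-fold in single oocytes, and for the 5 of highest mean; partners were limited to 2 examples per list and comparison. The other 52 samples were not analysed here. Some members count in the totals but their own values are not reported here.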

Additional observations from a re-analysis of the deposited data

Results flagged for a closer look

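For Xrcc5 and Rad18 every Btg4 KO library lay on 1 side of every Het library in mRNA and on the opposite side in footprints. Xrcc5 was higher in mRNA and lower in footprints, with a log2 difference in footprint efficiency of -1.84 (limma, adjusted p = 0.24). Rad18 had the reverse, lower in mRNA and higher in footprints, at 1.89 (limma, adjusted p = 0.25). Neither passed the test of the difference itself. Over all genes tested, the genotypes did not overlap in mRNA for 38.9% higher and 22.0% lower in KO. In footprints these shares were 16.8% and 7.69%. The share of all genes with opposite directions in the 2 assays is not given here, so these 2 members cannot be set against it.

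The authors' deposited table also gives tail lengths merged over libraries, and these hold members for which no single MII library of that genotype has a value. In the authors' deposited table the merge of wild-type and Het MII listed Rad1 at 32.9, Rad21 at 77.3 and Xrcc1 at 74.3. In the authors' deposited table the merge of the KO libraries listed Brca2 at 139, Fance at 52.2 and Rad52 at 15.0. Rad21 and Brca2 had 54.6 and 42.5 in the FGO library, and Rad52 had 60.1. How many reads stand behind these merged values is unknown.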

How the results depend on the processing

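Among the members whose log2 differences were followed by name across settings, none changed sign. Medians and balances did. Members higher and lower in single oocytes went from 9 and 12 to 13 and 5 within shared depth. The members' footprint median in KO went from 0.46 to -0.01 with quantile normalization, so some members not followed by name changed sign there. The count of members higher in KO mRNA was 5; it was 0 with no filter on low values, 15 of 36 with the replicate block (beside 34.2% of all genes), and 3 to 5 when each library was left out. Members lower in KO mRNA, 0 as reported, numbered 2 with quantile normalization, 3 with median scaling and 7 with the replicate block (beside 17.5% of all genes). The numbers of the mRNA libraries gave a same-number correlation of 0.63 over 2 pairs, too few to take them as paired. The single footprint call was 0 with a pseudocount of 0.1, 0 with no filter, and 0 to 1 when each library was left out. The replicate block changed no member's call in footprints or efficiency. In efficiency 0 members passed under every setting run. In single oocytes, 5 members were higher with oocytes scaled to genes listed in nearly all of them, and 5 were lower within shared depth; leaving out each of the 38 oocytes gave 8 to 12 higher and 11 to 12 lower. The cause of these changes was not tested. Each KO tail library alone against Het gave no value, since no member had both. Footprint depth limits what can be said of members listed at 0 in MII oocytes, which were not detectable at this depth.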
